A study of Mus musculus with 9 samples.

Results

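The genes described are 10 genes known for their expression in cortical thymic epithelial cells: Foxn1, Pax1, Tbata, Psmb11, Prss16, Ctsl, Ly75, Ccl25, Cxcl12 and Dll4. They were chosen by name, and all probe sets whose only gene symbol is one of these names were taken, which gave 20 of the 45101 probe sets on the array and 10 of the 18193 genes it names. The samples were mouse thymus tumor labelled XIST-resistant (XIST being the RNA that silences an X chromosome in female cells), mouse thymus tumor, and normal mouse thymus, with 3 Affymetrix arrays in each of the 3 groups. The sources used here do not give strain, age, sex, genotype, any transgene or how the tumors arose. They also do not say if each array had its own animal; the p-values therefore cover only array-to-array spread, part or all of which may be technical. Values are MAS5 signals in arbitrary units, and a gene's signal is compared with its own signal on other arrays. Where the signals of a list are summed, bright probe sets weigh most, and the sum is not a measure of cell number.

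The thymic cortex is the place where immature thymocytes, the T cell precursors, commit to the T lineage and undergo positive selection on epithelial cells. These epithelial cells are built under the transcription factor FOXN1. They attract precursors with chemokines, instruct them through a Notch ligand, and show them peptides cut by proteases and a proteasome that other cells lack. Some of the genes are also active elsewhere: Ly75 in dendritic cells, Ctsl in macrophages and fibroblasts, Cxcl12 in fibroblasts and endothelium, and Dll4 in endothelium.

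Of the 10 genes, 9 were lower in tumor than in normal thymus and 8 were lower in resistant tumor than in normal thymus, each with a limma adjusted p under 0.05, and none was higher in either comparison. Among all 11671 genes tested, 19.1% were called lower and 23.3% higher in tumor, and 20.2% lower and 23.1% higher in resistant tumor. The median fitted log2 change of the 10 genes was -5.65 in tumor and -5.49 in resistant tumor, beside 0.05 and 0.06 over all genes tested. With the genes that were under the median of every array of a tumor group set at their bounds, it was -4.45 in tumor and -4.05 in resistant tumor. All 10 genes passed the filter on dim probe sets, but 6 of them would not have passed on the 6 tumor arrays alone, so for these 6, Dll4 among them, the filter itself favours a lower value in the tumor groups. In bulk tissue, fewer epithelial cells and less RNA per epithelial cell cannot be told apart. In each of these comparisons 9 genes lay lower with no overlap between the groups, as did 25.2% of all genes in tumor and 25.7% in resistant tumor. Both comparisons use the same normal arrays.

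**Figure D1:**
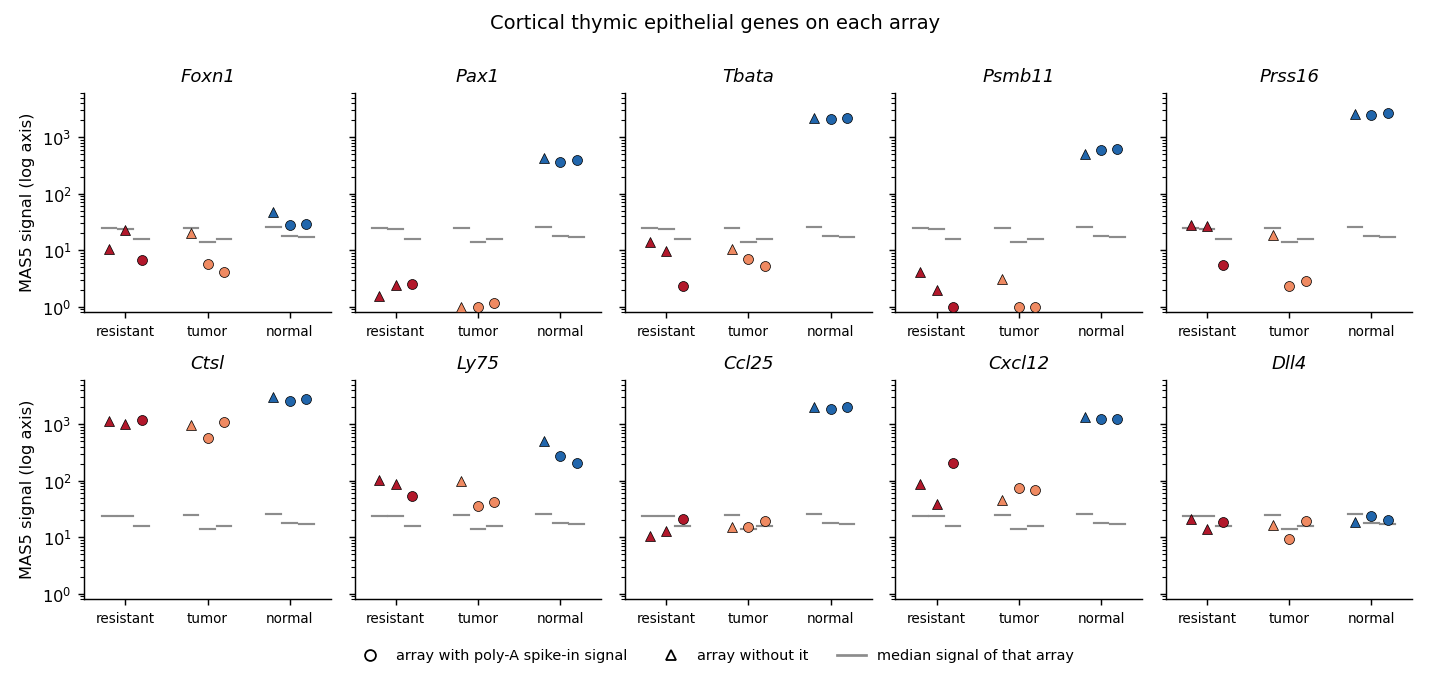
MAS5 signal of each of the 10 genes (log axis; values under 1 drawn at 1) on the 3 resistant tumor, 3 tumor and 3 normal thymus arrays, replicates 1 to 3 from left to right, with a grey dash at the median signal of each array and triangles for arrays without poly-A spike-in signal. Pax1, Tbata, Psmb11, Prss16 and Ccl25 lie far above the array median in normal thymus and near or under it in both tumor groups, Ctsl, Ly75 and Cxcl12 stay above it in every array, and Dll4 lies around it in all 3 groups.

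Among the transcriptional regulators, Pax1, a paired box factor of the pharyngeal pouches from which the thymus forms, gave a signal of 1.51, 2.39 and 2.49 in resistant tumor and 0.880, 0.677 and 1.16 in tumor, against 434, 362 and 390 in normal thymus. All 6 tumor arrays were under their array's median. Pax1 was therefore at least 19.0-fold lower in resistant tumor (limma adjusted p = 3.23e-06) and at least 22.6-fold lower in tumor (adjusted p = 1.34e-06), where each bound sets the normal mean against the median signal of the dim arrays. For this and every other gene dim in both tumor groups, the bounds differ only through the array medians and do not compare tumor with resistant tumor. Its other probe set was under the array median on all 9 arrays, so it gives no fold.

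Foxn1, the forkhead factor whose loss leaves nude mice without a thymus, has a pair of probe sets that differ in brightness. The dimmer by normal signal, which represents the gene in the fit because its mean log2 signal is the higher over all arrays, read 10.5, 22.6 and 6.69 in resistant tumor and 19.8, 5.74 and 4.06 in tumor, against 48.0, 27.8 and 28.9 in normal thymus. All 6 tumor arrays were under their array median. On this probe set Foxn1 was at least 1.94-fold lower in tumor (limma adjusted p = 0.0264). In resistant tumor, where the bound is 1.63-fold, it was not called (adjusted p = 0.0881), although it was with the spike-in set of the arrays as a block (adjusted p = 0.00216). The groups did not overlap in either comparison. The other probe set read 4.04, 0.684 and 0.204 in resistant tumor and 3.17, 2.32 and 2.18 in tumor, against 139, 112 and 113 in normal thymus. These tumor arrays too were under the median, so the second probe set was at least 5.83-fold lower in resistant tumor and at least 6.91-fold lower in tumor. Taking for every gene the probe set with the highest linear mean, a choice made after seeing the data, puts it in the gene fit, where Foxn1 was called in both comparisons (adjusted p = 8.06e-05 in resistant tumor and 0.000162 in tumor). The call on the dimmer probe set was lost in tumor without any of normal thymus 1, 2 and 3 or tumor 2 and 3, with adjusted p of 0.0558 to 0.094, and was gained in resistant tumor without tumor 1 (adjusted p = 0.0359).

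Tbata, a gene of thymus, brain and testis that in mouse restrains the growth of thymic epithelium, was measured by 4 probe sets. The probe set used in the fit read 14.0, 9.63 and 2.33 in resistant tumor and 10.5, 6.99 and 5.30 in tumor, against 2196, 2099 and 2180 in normal thymus. Tbata was at least 104-fold lower in resistant tumor (adjusted p = 5.16e-06) and at least 124-fold lower in tumor (adjusted p = 5.17e-06). The other 3 probe sets had means of 1.47 to 3.56 in resistant tumor and 0.969 to 1.61 in tumor, against 227 to 2094 in normal thymus, and each was called lower in both comparisons when every probe set was fitted unfiltered (adjusted p at most 0.000196).

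FOXN1 is known to bind DNA at sites with the letters GACGC. This motif was searched on both strands in the 250 bases upstream of each gene start in the RefSeq promoter table (GRCm38.p6), which holds 9 of the 10 genes, all but Prss16. The motif was found upstream of 4 of these 9, Psmb11, Ccl25, Pax1 and Cxcl12, beside 24.8% of all 27025 genes in the table. By start, it was found at 4 of the 10 starts of these genes, beside 22.6% of 32851 starts. No match was found upstream of Tbata, Foxn1, Ly75, Ctsl and Dll4, of which Tbata, Ly75 and Ctsl were also called lower in both tumor groups. The matching windows are shown 5′ to 3′ on the strand of the gene, with the motif or its reverse complement GCGTC in capitals. They are chr14:54625060-54625309 for Psmb11, chr8:4324960-4325209 for the upstream of a pair of Ccl25 starts, chr2:147364744-147364993 for Pax1 and chr6:117168285-117168534 for Cxcl12, all on the plus strand. Psmb11 holds the motif at 2 places, beginning 239 and 62 bases before the start, and the others hold it at 1 place, beginning 56 bases before the start in Ccl25, 86 in Pax1 and 62 in Cxcl12. The window of the other Ccl25 start, chr8:4349338-4349587, holds no match. A match is a description of these letters and not a binding site.
Psmb11: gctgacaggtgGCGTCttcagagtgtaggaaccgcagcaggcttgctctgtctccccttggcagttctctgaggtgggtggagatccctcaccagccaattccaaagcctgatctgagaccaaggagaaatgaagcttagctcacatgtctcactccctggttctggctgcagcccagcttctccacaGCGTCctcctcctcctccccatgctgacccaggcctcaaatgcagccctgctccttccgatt
Ccl25: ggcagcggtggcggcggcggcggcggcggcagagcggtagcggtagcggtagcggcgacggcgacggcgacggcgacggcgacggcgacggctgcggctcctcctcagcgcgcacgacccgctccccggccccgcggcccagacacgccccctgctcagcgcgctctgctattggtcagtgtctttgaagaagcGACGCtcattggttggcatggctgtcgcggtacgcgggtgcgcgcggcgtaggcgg
Pax1: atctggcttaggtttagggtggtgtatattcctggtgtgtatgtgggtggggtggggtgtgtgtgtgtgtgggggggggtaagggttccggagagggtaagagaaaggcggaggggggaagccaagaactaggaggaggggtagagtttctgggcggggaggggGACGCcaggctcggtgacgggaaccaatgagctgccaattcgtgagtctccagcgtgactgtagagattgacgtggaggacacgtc
Cxcl12: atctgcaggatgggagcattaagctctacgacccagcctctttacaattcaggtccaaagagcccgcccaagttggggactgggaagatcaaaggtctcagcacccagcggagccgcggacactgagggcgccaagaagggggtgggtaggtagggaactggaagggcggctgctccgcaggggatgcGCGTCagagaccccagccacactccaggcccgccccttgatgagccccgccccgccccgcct

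Psmb11 encodes beta5t, the catalytic subunit that makes the thymoproteasome of cortical epithelium, which cuts peptides for the selection of CD8 T cells. Its signal was 4.12, 1.97 and 0.817 in resistant tumor and 3.08, 0.480 and 0.872 in tumor, against 497, 598 and 613 in normal thymus. It was at least 27.4-fold lower in resistant tumor (adjusted p = 1.17e-05) and at least 32.5-fold lower in tumor (adjusted p = 7.98e-06). The subunits that take the same position in other proteasomes were not called lower. Psmb5, the subunit of the constitutive proteasome, averaged 1123 ± 156 in resistant tumor and 1185 ± 268 in tumor, against 955 ± 163 in normal thymus (SD, n = 3), and was not called (adjusted p = 0.351 and 0.245). Psmb8, the subunit of the immunoproteasome, averaged 1903 ± 141, 1828 ± 279 and 1483 ± 74.5 in resistant tumor, tumor and normal thymus. It rose in resistant tumor by a log2 change of 0.36 ± 0.12 (adjusted p = 0.0347) and was not called in tumor (0.29 ± 0.12, adjusted p = 0.075). The immunoproteasome subunits Psmb9 and Psmb10 were called in neither comparison, with adjusted p of 0.105 to 0.778.

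Prss16 encodes the thymus-specific serine protease, which takes part in making the peptides that select CD4 T cells. Its signal was 27.7, 26.5 and 5.36 in resistant tumor and 18.6, 2.31 and 2.83 in tumor, against 2605, 2454 and 2647 in normal thymus. The 2 resistant arrays with the highest of these tumor values lay just above their array medians of 24.1 and 23.6, and the third lay under its own. Prss16 fell by a log2 change of -7.34 ± 0.81 in resistant tumor (adjusted p = 9.04e-05) and was at least 147-fold lower in tumor (adjusted p = 2.55e-05).

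Ctsl encodes cathepsin L, a lysosomal protease that degrades the invariant chain of MHC class II in cortical epithelium. Unlike the genes above, it stayed bright on every tumor array, with 1134, 1026 and 1181 in resistant tumor and 961, 582 and 1109 in tumor, against 3059, 2617 and 2752 in normal thymus. No tumor array reached the lowest normal array. The mean signal was 39.6% of the normal mean in resistant tumor (log2 change -1.33 ± 0.20, adjusted p = 0.000664) and 31.5% in tumor (-1.72 ± 0.20, adjusted p = 0.000142). A dimmer Ctsl probe set averaged 16.3 ± 1.90 in resistant tumor and 15.6 ± 6.73 in tumor, against 91.6 ± 6.22 in normal thymus, which is 17.8% of the normal mean in resistant tumor and at least 5.24-fold lower in tumor, where all 3 arrays were under the median.

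Of 11 further cysteine and aspartic cathepsins tested, 2 were lower and 2 higher in each comparison against normal thymus, with a median log2 change of 0.15 in resistant tumor and 0.02 in tumor. Ctsk, a collagen-degrading cathepsin of fibroblasts and osteoclasts, was at least 5.88-fold higher in resistant tumor and at least 8.56-fold higher in tumor (adjusted p = 9.77e-05 and 3.77e-05). Ctsk was under the median on every normal array and passed the filter only through the tumor arrays, which itself favours a higher value. Ctsw, a cathepsin of cytotoxic lymphocytes, fell by -1.16 ± 0.30 in resistant tumor and -1.75 ± 0.30 in tumor (adjusted p = 0.0112 and 0.00128). Ctso fell by -0.95 ± 0.22 and -0.79 ± 0.22 (adjusted p = 0.00647 and 0.016). Ctsb, named here after its values were seen as the remaining called gene of this list, rose by 0.54 ± 0.09 and 0.45 ± 0.09 (adjusted p = 0.000912 and 0.00238).

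Macrophage markers, which bear on Ctsl, were mostly not called: of 11 tested 1 was lower and none higher in each comparison. It was Mertk, a receptor for the uptake of dying cells, which averaged 15.9 ± 0.61 in resistant tumor and 20.5 ± 5.59 in tumor, against 54.3 ± 2.89 in normal thymus (adjusted p = 0.000561 and 0.00187). Their summed signal over 12 genes ranged from 1593 to 3000 in resistant tumor and from 1536 to 2600 in tumor, against 2278 to 2769 in normal thymus. Csf1r, the growth factor receptor that defines macrophages, averaged 297 ± 150 in resistant tumor and 279 ± 132 in tumor, against 390 ± 53.7 in normal thymus. Their part in the Ctsl signal was not tested.

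Ly75 encodes CD205, an endocytic receptor of cortical epithelium and dendritic cells. Its signal was 104, 88.3 and 54.5 in resistant tumor and 99.4, 35.2 and 41.6 in tumor, against 512, 272 and 205 in normal thymus. Every tumor array was under every normal array, and within each group the array or arrays without spike-in signal were the higher ones. Ly75 fell by -1.95 ± 0.44 in resistant tumor (adjusted p = 0.00618) and by -2.54 ± 0.44 in tumor (adjusted p = 0.00146). Within the arrays without spike-in signal the change was -2.42 in resistant tumor and -2.37 in tumor, and within those with it -2.12 and -2.63.

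Of 8 dendritic cell markers tested beside Ly75, 5 were called lower in resistant tumor and 7 in tumor, and none higher. Only 1 of the 8, Itgax, would have passed the filter on the tumor arrays alone, so these counts are partly set by the filter. Their summed signal over 9 genes was 93.7 to 155 in resistant tumor and 63.0 to 163 in tumor, against 721 to 743 in normal thymus. Cd83, an activation marker of dendritic cells that cortical epithelium also carries, made up 394 to 478 of the normal sums, and without it, a choice made after seeing the sums, the sums were 79.5 to 133 in resistant tumor and 48.9 to 151 in tumor, against 261 to 328 in normal thymus. Cd83 was at least 21.4-fold lower in resistant tumor and at least 25.3-fold lower in tumor (adjusted p = 7.2e-07 and 3.98e-07). Ccr7, a homing receptor of migrating dendritic cells and mature T cells, was at least 4.18-fold lower in resistant tumor and at least 4.96-fold lower in tumor (adjusted p = 0.00115 and 0.000773). The integrin gene Itgax, a defining marker of dendritic cells, read 36.6 to 38.9 in resistant tumor and 17.0 to 33.0 in tumor, against 50.3 to 56.7 in normal thymus (adjusted p = 0.16 and 0.00871). The part of dendritic cells in the Ly75 signal was not tested.

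Of the ligands, Ccl25, the chemokine that draws CCR9-bearing thymocytes, had a signal of 10.4, 12.6 and 21.2 in resistant tumor and 15.2, 15.1 and 19.5 in tumor, against 2000, 1865 and 2028 in normal thymus. Tumor arrays lay around their medians, with 1 of 3 resistant and 2 of 3 tumor arrays at or above it. The fitted Ccl25 change was -7.13 ± 0.25 in resistant tumor (adjusted p = 1.29e-07) and -6.90 ± 0.25 in tumor (adjusted p = 1.59e-07), with the smallest adjusted p of the 10 genes in both comparisons. A further Ccl25 probe set was at or above the array median on every array. It averaged 35.1 ± 6.27 in resistant tumor and 29.4 ± 6.78 in tumor, against 27.4 ± 9.46 in normal thymus, and was not called (adjusted p = 0.478 and 0.872 without the filter).

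Ccr9, the receptor for Ccl25 on thymocytes, was low in the same arrays. Its signal was 17.2, 11.1 and 76.2 in resistant tumor and 22.9, 17.5 and 11.1 in tumor, against 2588, 2734 and 2846 in normal thymus. Only 1 of 3 arrays in each tumor group reached its array median. Ccr9 therefore passed the filter only with the normal arrays, which itself favours a lower value in the tumor groups. The fitted Ccr9 change was -6.80 ± 0.59 in resistant tumor (adjusted p = 2.18e-05) and -7.37 ± 0.59 in tumor (adjusted p = 1.31e-05). Ackr4, an atypical receptor that binds and removes the same chemokine, stayed near the array median in every group, at 19.2 ± 10.5, 20.9 ± 10.9 and 21.6 ± 5.49 in resistant tumor, tumor and normal thymus, and was not called.

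Cxcl12, a chemokine of cortical stroma, fibroblasts and endothelium, kept a measurable signal. It read 86.1, 39.3 and 204 in resistant tumor and 44.7, 73.6 and 68.7 in tumor, against 1363, 1235 and 1252 in normal thymus. All tumor arrays were above their array median and none came near the normal arrays; resistant tumor 3 stood above the other tumor arrays. Cxcl12 fell by -3.86 ± 0.48 in resistant tumor (adjusted p = 0.000189) and by -4.40 ± 0.48 in tumor (adjusted p = 8.32e-05). Without resistant tumor 3 the change in resistant tumor was -4.46, and within the arrays with spike-in signal, where it is the only resistant array, it was -2.61. A dimmer Cxcl12 probe set gave -3.40 ± 0.31 and -3.72 ± 0.31 (adjusted p = 0.000236 and 0.000151 without the filter), and the remaining one was under the array median on all 9 arrays.

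Both receptors of Cxcl12 were measured. Cxcr4, its signalling receptor on thymocytes, averaged 732 ± 36.9 in resistant tumor and 900.3 ± 151 in tumor, against 1191 ± 141 in normal thymus, a fall of -0.70 ± 0.14 (adjusted p = 0.00284) and -0.41 ± 0.14 (adjusted p = 0.0356). Ackr3, an atypical receptor that takes up Cxcl12, read 37.8, 27.6 and 55.5 in resistant tumor and 29.6, 23.0 and 92.0 in tumor, against 11.8, 19.5 and 13.2 in normal thymus. Ackr3 rose by 1.41 ± 0.50 (adjusted p = 0.0457) and 1.45 ± 0.50 (adjusted p = 0.0419). It reached the median on 1 of 3 normal arrays and on every tumor array, so for it the filter itself favours a higher value.

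Fibroblast and endothelial markers, which also bear on Cxcl12, included more higher than lower calls. Of 13 fibroblast and mural markers tested, 7 were higher and 2 lower in resistant tumor, and 6 higher and 1 lower in tumor. Their summed signal over 14 genes was 6762 to 11515 in resistant tumor and 5647 to 9841 in tumor, against 5043 to 5678 in normal thymus. Thy1, which thymocytes express strongly and which was one of the genes called lower, made up 3308 to 4014 of the normal sums. Without it, a choice made after seeing the sums, the sums were 3908 to 8453 in resistant tumor and 3105 to 6733 in tumor, against 1664 to 1777 in normal thymus. Col1a1, a chain of type I collagen, rose by 3.74 ± 0.51 and 3.90 ± 0.51 (adjusted p = 0.000337 and 0.000254), and Fbln1, a matrix glycoprotein, by 3.63 ± 0.34 and 3.14 ± 0.34 (adjusted p = 3.19e-05 and 7.5e-05). Col1a2 and Col3a1 averaged 1658 and 1796 in resistant tumor and 1478 and 1517 in tumor, against 210 and 302 in normal thymus. Dcn, called lower in resistant tumor only, averaged 220 ± 121 in resistant tumor and 228 ± 107 in tumor, against 468 ± 17.3 in normal thymus (adjusted p = 0.0401 and 0.0635). Lum, Pdgfra, Tagln and Rgs5 were called in neither comparison. Of 12 endothelial markers, 5 were higher and 1 lower in each comparison. Some of the higher ones did not reach the median on every normal array, so for these the filter itself favours a higher value. Egfl7, a secreted endothelial factor, led the higher ones and rose by 1.98 ± 0.34 and 2.10 ± 0.34 (adjusted p = 0.00139 and 0.000971). The gene called lower was Pecam1, at 122 ± 38.3 in resistant tumor and 95.5 ± 8.04 in tumor, against 177 ± 10.5 in normal thymus (adjusted p = 0.0408 and 0.00541). The summed endothelial signal was 675 to 1057 in resistant tumor and 654 to 904 in tumor, against 525 to 547 in normal thymus. Egfl7 alone read 196 to 433 in resistant tumor, 188 to 366 in tumor and 52.2 to 77.5 in normal thymus. It therefore carries a large part of the rise in the sum. The part of these cells in the remaining Cxcl12 signal was not tested.

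Dll4, the Notch ligand of cortical epithelium and of sprouting endothelium, gave no measurable difference. Its signal was 20.9, 14.0 and 18.3 in resistant tumor and 16.6, 9.34 and 19.1 in tumor, against 18.6, 23.8 and 20.4 in normal thymus. The groups overlapped, and only 2 of 3 normal arrays were at or above their median. The fitted change was -0.25, with a 95% interval of -1.08 to 0.58, in resistant tumor (adjusted p = 0.615), and -0.53, with an interval of -1.36 to 0.29, in tumor (adjusted p = 0.278). The other Dll4 probe set was under the median on all 9 arrays. A change in Dll4 was therefore not detectable at this signal over background.

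Notch1, which Dll4 engages on thymocytes, and Notch3 were higher in both tumor groups. Notch1 averaged 2615 ± 202 in resistant tumor and 2901 ± 155 in tumor, against 949 ± 67.5 in normal thymus, and rose by 1.46 ± 0.09 (adjusted p = 3.59e-06) and 1.61 ± 0.09 (adjusted p = 1.81e-06). Notch3 averaged 991 ± 215 and 1053 ± 108, against 245 ± 6.70 in normal thymus, and rose by 1.99 ± 0.16 (adjusted p = 1.36e-05) and 2.10 ± 0.16 (adjusted p = 9.4e-06). For both receptors every tumor array was above every normal array.

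**Figure D2:**
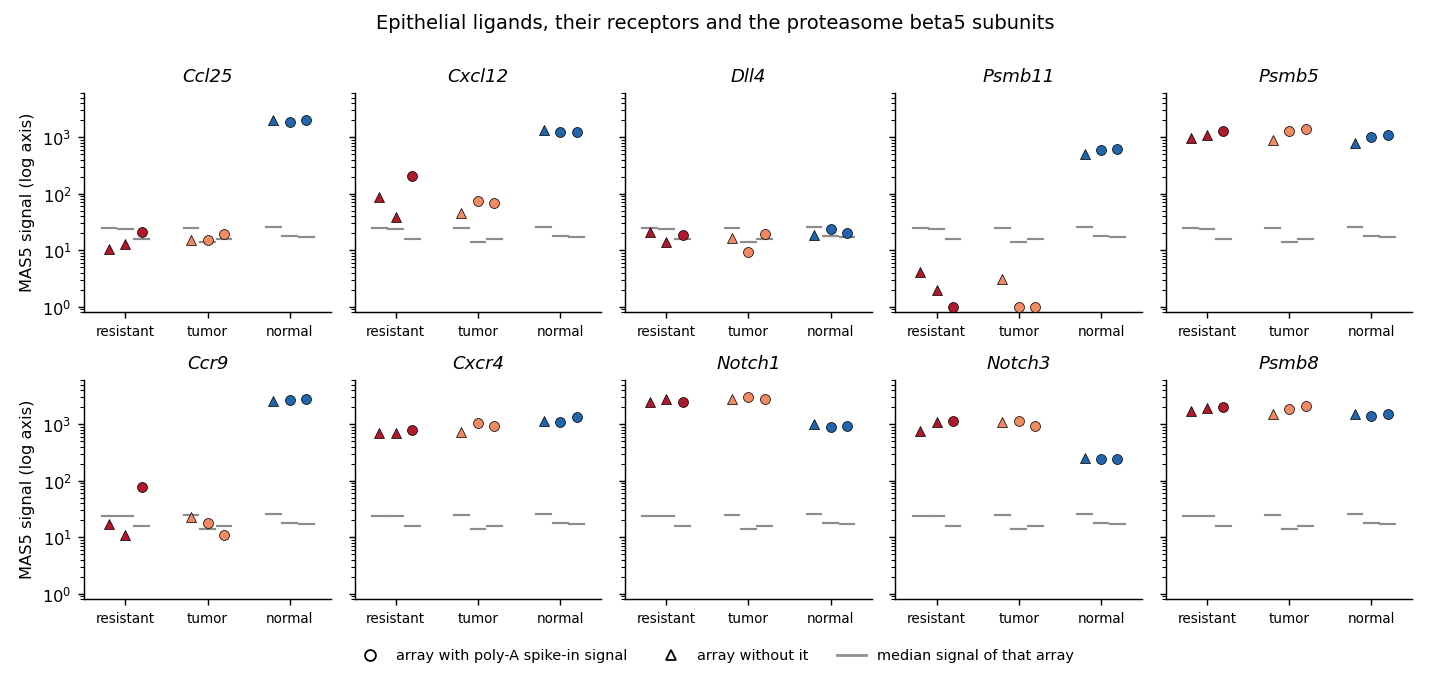
MAS5 signal per array (log axis; values under 1 drawn at 1; symbols and dashes as in the plot of the 10 genes) of the ligands Ccl25, Cxcl12 and Dll4, the receptors Ccr9, Cxcr4, Notch1 and Notch3, and the proteasome subunits Psmb11, Psmb5 and Psmb8 in resistant tumor, tumor and normal thymus. Ccl25 and Ccr9 are both low in the 6 tumor arrays, Cxcl12 is low while Cxcr4 stays between 710 and 1038 there, Notch1 and Notch3 are above all normal arrays, and Psmb11 is low while Psmb5 and Psmb8 are not.

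Other epithelial genes were lower alongside the 10. Of 11 further thymic epithelial genes tested, 10 were lower and 1 higher in resistant tumor, and 9 were lower and none higher in tumor, with median fitted log2 changes of -3.68 and -2.46 (-2.07 and -2.46 with dim groups at their bounds). Of these 11, 4 would have passed the filter on the tumor arrays alone. Krt8, a keratin of simple and cortical epithelium, read 36.2, 26.2 and 7.58 in resistant tumor and 20.1, 6.18 and 4.38 in tumor, against 1436, 1402 and 1489 in normal thymus (log2 change -6.22 ± 0.63, adjusted p = 5.56e-05, in resistant tumor, where 2 of 3 arrays reached the median, and at least 82.6-fold lower, adjusted p = 1.81e-05, in tumor). Enpep, the surface peptidase Ly51 that marks cortical epithelium, was at least 14.6-fold lower in resistant tumor (adjusted p = 2.9e-05) and had a fitted change of -4.86 ± 0.43 in tumor, where 1 of 3 arrays reached the median (adjusted p = 2.43e-05). Il7, the epithelial cytokine that keeps thymocyte precursors alive, was at least 7.23-fold lower in resistant tumor and at least 8.58-fold lower in tumor (adjusted p = 0.000175 and 0.000198). The 1 gene that rose, Cldn3, a tight junction claudin named after its values were seen, read 13.8, 60.5 and 51.5 in resistant tumor and 7.53, 16.7 and 5.97 in tumor, against 8.96, 1.88 and 2.06 in normal thymus, and was at least 1.76-fold higher in resistant tumor (adjusted p = 0.00763). Cldn3 reached the median on 2 of 3 resistant arrays, 1 of 3 tumor arrays and no normal array, so for it the filter itself favours a higher value.

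Few genes of medullary epithelium and of thymus organogenesis were bright enough to be tested. All 3 medullary genes tested of 10 listed were called lower in both comparisons, but only Spib would have passed the filter on the tumor arrays alone. Aire, the regulator of self-antigen expression in the medulla, was at least 3.49-fold lower in resistant tumor and at least 4.15-fold lower in tumor (adjusted p = 0.000366 and 0.000344). Relb, a factor that medullary epithelium requires, had fitted changes of -2.34 ± 0.41 and -2.21 ± 0.41, with 1 of 3 arrays of each tumor group at or above the median (adjusted p = 0.00147 and 0.00198), and Spib by -1.29 ± 0.39 and -1.93 ± 0.39 (adjusted p = 0.0228 and 0.00312). Of 5 organogenesis factors tested of 11 listed, 4 were called lower in each comparison, and all 5 passed the filter only with the normal arrays. Among the 4 was Trp63, the p63 factor of epithelial stem cells, at least 6.75-fold lower in resistant tumor and at least 8.0-fold lower in tumor (adjusted p = 6.99e-05 and 0.000103). Eya1 was at least 2.46-fold lower in resistant tumor and at least 2.92-fold lower in tumor (adjusted p = 0.00345 and 0.00216).

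Of 9 markers of double-positive thymocytes, the cells that fill the cortex, 7 were called lower in each comparison and none higher, with a median log2 change of -1.71 in resistant tumor and -1.40 in tumor, and 6 of the 9 would have passed the filter on the tumor arrays alone. Their summed signal over 9 genes was 6457 to 8389 in resistant tumor and 7421 to 7974 in tumor, against 16270.5 to 18042 in normal thymus. The coreceptor genes were among them: Cd8a was at least 106-fold lower in resistant tumor and at least 125-fold lower in tumor (adjusted p = 7.25e-06 and 4.69e-06), and Cd8b1 was at least 131-fold lower in resistant tumor and at least 156-fold lower in tumor (adjusted p = 7.77e-08 and 1.59e-07). Cd4 had fitted changes of -6.45 ± 0.40 and -6.00 ± 0.40, with 1 of 3 arrays of each tumor group at or above the median (adjusted p = 3.54e-06 and 4.69e-06). The other markers, named after their values were seen, had smaller changes. Of the recombinase that assembles antigen receptors, Rag2 fell by -2.5 and -3.2 (adjusted p = 0.000122 and 2.92e-05). Rag1 fell by only -0.57 and -0.54 (adjusted p = 0.0352 and 0.0429). Cd1d1 fell by -1.71 and -1.4 (adjusted p = 8.02e-05 and 0.000271), and Themis by -1.55 and -1.26 (adjusted p = 2.29e-05 and 7.49e-05). Dntt (-0.11 and -0.18) and Arpp21 (-0.29 and -0.28) were not called (adjusted p of 0.161 to 0.427). Of 4 B cell markers tested, 1 was called lower in resistant tumor and 4 in tumor, and all 4 passed the filter only with the normal arrays. Cd79b, part of the B cell receptor, was at least 5.29-fold lower in resistant tumor and at least 6.28-fold lower in tumor (adjusted p = 0.00013 and 5.73e-05).

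**Figure D3:**
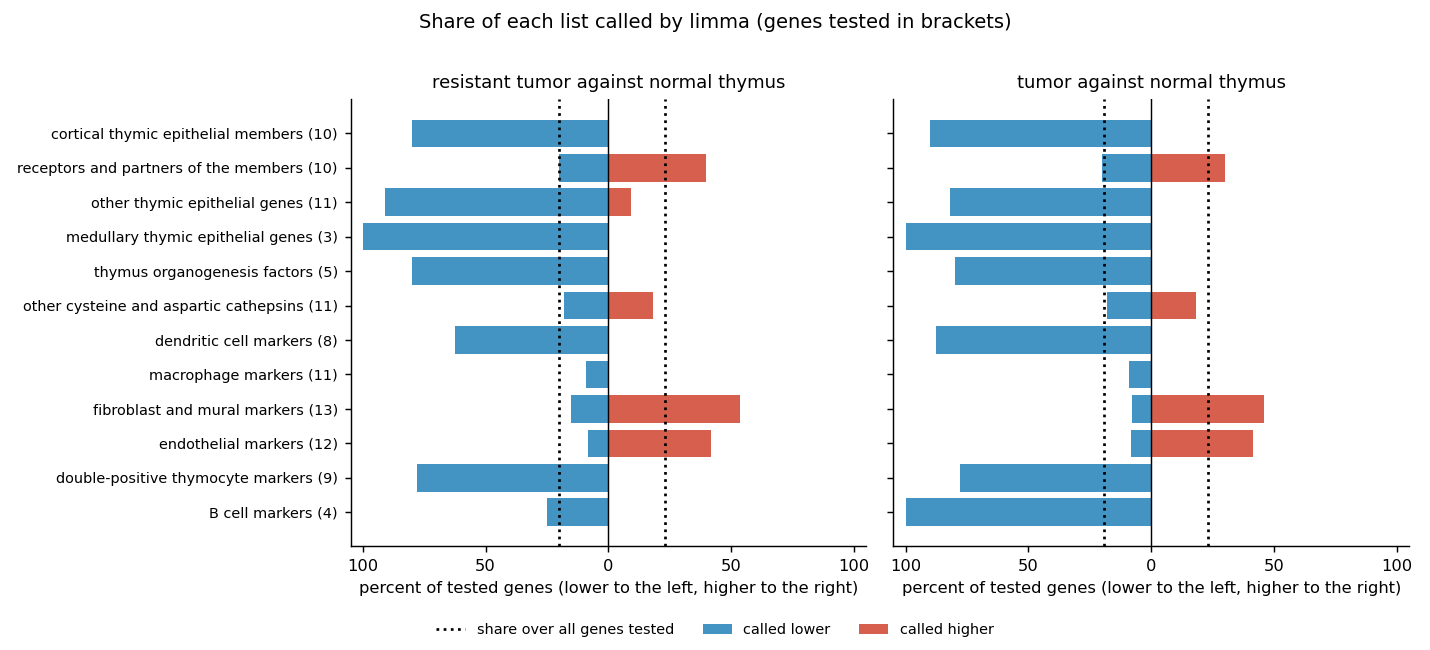
Percent of the tested genes of each list that limma called lower (blue, to the left) or higher (red, to the right) in resistant tumor and in tumor against normal thymus, with the number tested in brackets and dotted lines at the share over all genes tested (20.2% lower and 23.1% higher in resistant tumor, 19.1% and 23.3% in tumor). The 10 cortical genes (top), the other epithelial and organogenesis lists, and the dendritic cell, double-positive thymocyte and B cell lists extend past the left dotted line. The fibroblast, endothelial and receptor lists extend past the right one, and the receptor list also lies just past the left one in tumor.

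Genes were ranked by how near their pattern over the 9 arrays lay to that of Prss16. Likeness was the root mean squared difference of log2 signal after subtracting each gene's normal mean. It rests in part on signals near background, since Prss16 itself reached the array median on 2 of the 6 tumor arrays and Cd8a on none. The nearest 6 genes outside the 10 were Cd8a, the coreceptor of double-positive and CD8 thymocytes, with a difference of 0.724, Fgf13 with 1.14, Krt8 with 1.16, Jakmip1 with 1.28, the immunoglobulin segment Igkv8-30 with 1.30, and the actin-binding gene Nebl with 1.32. Among the 10 genes themselves Psmb11 differed from Prss16 by 0.708, Tbata by 0.944, Pax1 by 1.15 and Ccl25 by 1.73, whereas Cxcl12, Ly75, Foxn1, Ctsl and Dll4 differed by 3.67 to 6.46. The Foxn1 value rests on its dimmer probe set. That probe set and Dll4 averaged only 34.9 and 20.9 in normal thymus, where a fall as large as that of Prss16 could not be seen.

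All 20 probe sets were also fitted singly, unfiltered, among the 45037 that are no control rows. Of the 20, 14 were called lower in each comparison against normal thymus and none higher, where 9.27% of all probe sets were called lower and 9.26% higher in resistant tumor, and 9.32% lower and 9.19% higher in tumor. The 6 that were not called had the lowest means of the 20 in normal thymus, 3.29 to 34.9, and included the probe set of Foxn1 used in the gene fit.

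**Figure D4:**
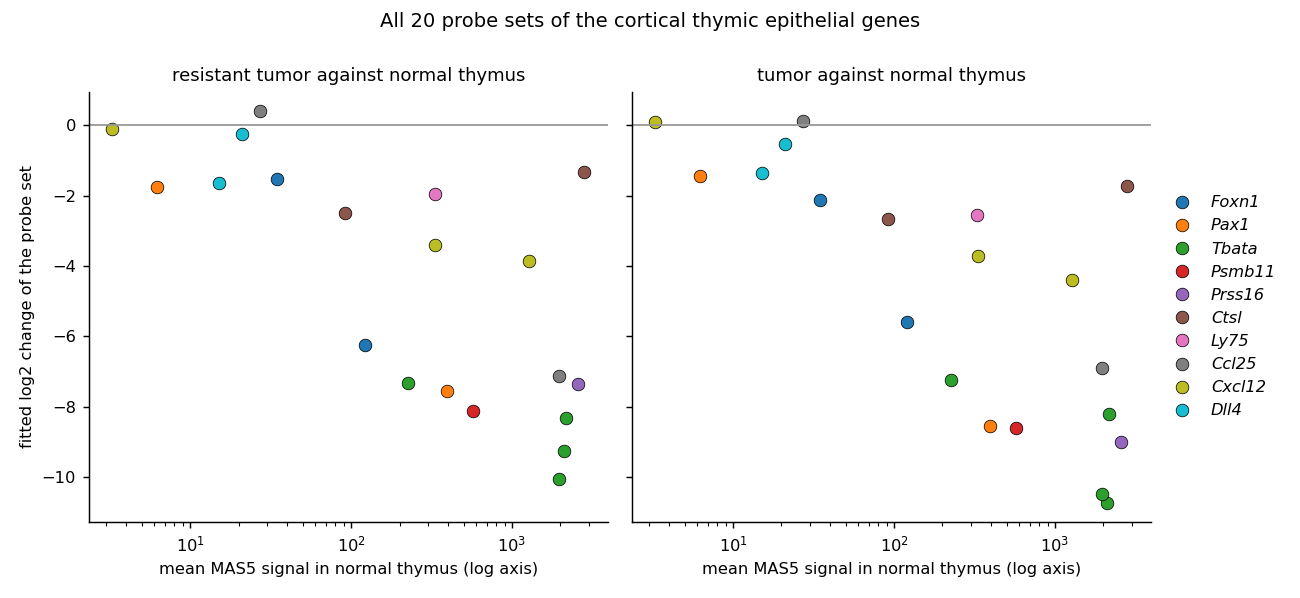
Fitted log2 change of each of the 20 probe sets against its mean MAS5 signal in normal thymus (log axis), for resistant tumor and for tumor, coloured by gene; changes of probe sets under the array median in the tumor groups are fitted values and not bounds. The probe sets with a normal mean of at most 34.9 lie between -2.13 and 0.40, and among the brighter ones those of Ctsl, Ly75 and Cxcl12 lie nearest to 0.

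Between resistant tumor and tumor none of the 10 genes was called, in a comparison where 0.36% of all genes tested were called in either direction. The smallest adjusted p among the 10 was 0.712, for Pax1, which was also the only one of the 10 whose groups did not overlap (10.4% of all genes had groups that did not overlap). Pax1 was under the array median on all 6 of these arrays, so no fold is given. For genes above the median on every array of both groups, the 95% intervals of the log2 difference, resistant tumor minus tumor, were -0.07 to 0.84 for Ctsl, -0.40 to 1.59 for Ly75 and -0.53 to 1.61 for Cxcl12. Ccl25 and Dll4 lay around the median in both groups. Their intervals, -0.79 to 0.33 for Ccl25 and -0.55 to 1.11 for Dll4, compare signals near background. The interval was -0.14 to 3.49 for Prss16, where the 3 tumor arrays were under the median and 2 of 3 resistant arrays just above it. None of these intervals leaves out 0, and a p that misses the threshold does not show that the groups are alike. The Cxcl12 difference was 0.54, and -0.067 without resistant tumor 3.

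**Figure D5:**
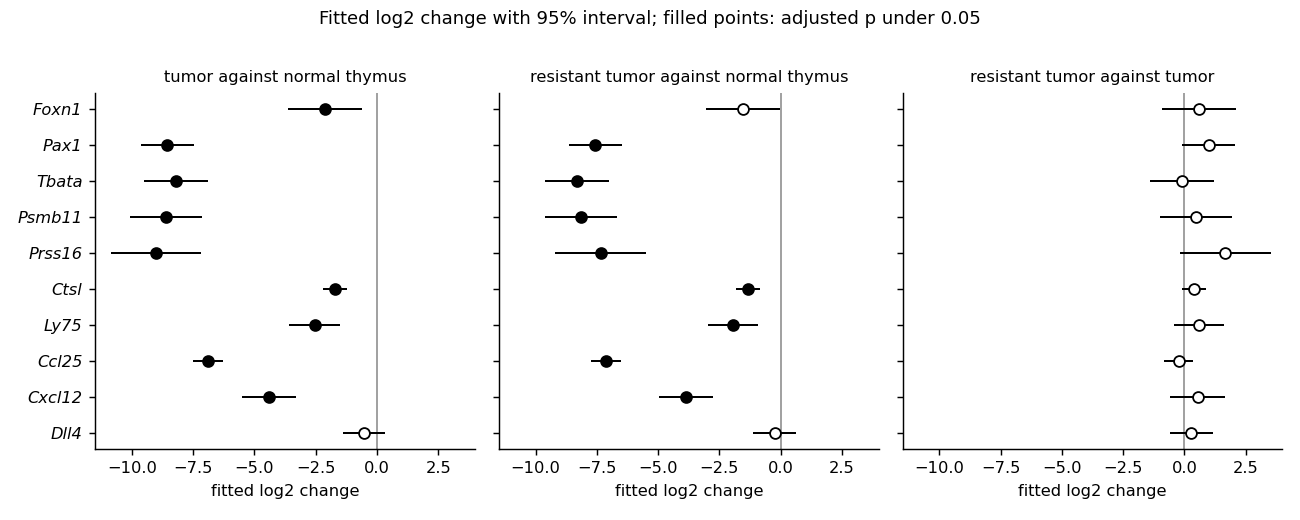
Fitted log2 change of each of the 10 genes with its 95% interval in tumor against normal thymus, resistant tumor against normal thymus, and resistant tumor against tumor; filled points have a limma adjusted p under 0.05. Changes against normal thymus run from -9.02 for Prss16 to -0.25 for Dll4, and all intervals between resistant tumor and tumor include 0; for genes under the array median in the tumor groups the points are fitted values and not bounds.

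The arrays also differed in a way that crosses the groups. In 4 arrays (resistant tumor 1 and 2, tumor 1 and normal thymus 1) the poly-A spike-in controls gave a mean signal of 2.01 to 2.87, and in the other 5 they gave 125 to 211; the array medians were 23.6 to 25.8 in the 4 and 13.9 to 17.8 in the other 5. Over all genes tested, deviations from the group means correlated at 0.362 to 0.654 between arrays of the same set and of different groups and at -0.735 to -0.301 between arrays of different sets. For 5 of the 10 genes, Prss16, Psmb11, Tbata, Foxn1 and Ly75, each of the 3 tumor arrays without spike-in signal was above each of the 3 with it. Prss16 read 18.6 to 27.7 without and 2.31 to 5.36 with spike-in signal. All 10 genes had a negative change against normal thymus within both sets of arrays, in tumor and in resistant tumor; for the 9 genes whose groups do not overlap that sign is fixed in advance. With the set as a block in the fit, 9 of the 10 were called lower in each comparison, all but Dll4. The part of this array difference in the low tumor signals was not tested.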

How the data were processed

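The deposited values are linear intensity values, 1 MAS5 signal per probe set and array, per the submitters' processing notes; their version, scaling target and detection calls are not stated in the labels. The 2% trimmed mean of the deposited table is 100.03 on every array. RNA was labelled with biotin, per the labels' protocols. Of 45101 probe sets, 34945 had 1 symbol and 932 several in the platform gene table, and 64 were control rows; probe sets without exactly 1 symbol and control rows stayed out of the gene fit. Replicate arrays correlated at 0.92 to 0.991.

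Signals were floored at 1 and log2-transformed without renormalizing. The filter asked for a signal at or above the array median on 3 or more of the 9 arrays. Each gene was represented by its probe set of highest mean log2 signal, giving 11671 genes. All 9 arrays entered a fit of group means with limma 3.58.1 in R 4.3.3 (6 residual degrees of freedom, empirical Bayes with intensity trend, two-sided, Benjamini-Hochberg over all genes, called at 0.05). It was tested on simulated data. Where a gene lay below the median of every array in a group, only a bound is given in the text, while medians, likeness and figures use fitted values: the brighter group's mean log2 signal is set against the mean, over the dim arrays, of that median or the gene's own signal, whichever is higher. Folds between groups that both lay below it were left out. The number of arrays limits the precision.

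The 10 genes and the 11 other lists were chosen with earlier results of these data known. All 10 genes are named in every comparison, likewise every tested gene among their receptors and partners. Of each other list up to 3 genes could be named, those of largest called change without overlap in tumor against normal thymus. Csf1r and Itgax, as defining markers, Ctsb, Cldn3, Thy1, Col3a1, Dcn, Lum, Pdgfra, Tagln, Rgs5, Pecam1, Rag1, Rag2, Cd1d1, Themis, Dntt and Arpp21 were added after their values were seen. Likeness to Prss16 names the 6 nearest genes, Rik and Gm symbols passed over. Tumor 1 lists its control rows differently (correlation with the other arrays -0.295 as deposited, 0.907 after sorting by name), which were sorted before the spike-in signal was read. The sources used here do not say if replicate numbers pair the arrays. Deviations of same-numbered arrays correlated over 0.1 in 7 of 9 pairs, with a range of -0.337 to 0.654. All 7 were pairs of the same spike-in set. Resistant tumor 2 is in another set than tumor 2 and normal thymus 2, and correlated with them at -0.301 and -0.337. Pairing by number can therefore not be told apart from the set. The arrays fall into 2 sets, without and with spike-in signal, which cross the groups and were used as a block in an alternative fit. Alternatives were other normalizations, offset, filters, prior, probe set choices, samples in the fit, blocks and leaving out each array. Figures used matplotlib 3.10.9.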

Additional observations from a re-analysis of the deposited data

How the results depend on the processing

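The number of the 10 genes called lower stayed at 8 or 9 in tumor against normal thymus and at 8 or 9 in resistant tumor against normal thymus over the 20 settings refitted; none was called higher, and none was called between resistant tumor and tumor. In each comparison against normal thymus 8 genes were called in all settings, Dll4 in none, and Foxn1 in 14 of 20 settings for tumor and 10 of 20 for resistant tumor. With the replicate block the counts were 9 in tumor and 9 in resistant tumor, where Foxn1 gained its call (adjusted p = 0.0402); the block changed no other call of the 10. Between resistant tumor and tumor, the uncalled changes turned sign in 13 of 199 refits. With the mean over probe sets, Ccl25 was at 0.018, Foxn1 at -0.035 and Tbata at 0.43. With the offset of 50, Foxn1 was at -0.026 and Tbata at 0.022. Foxn1 was at -0.66 with the filter at the 75th percentile and with the probe set of the highest linear mean (chosen after seeing the data), and Dll4 at -0.017 under quantile normalization. Leaving out 1 array at a time gave -0.067 to 1.12 for Cxcl12 (lowest without resistant tumor 3), -0.029 to 0.488 for Dll4 (lowest without tumor 2), -0.052 to 1.01 for Psmb11 (lowest without resistant tumor 1) and -0.622 to 0.67 for Tbata (highest without resistant tumor 3; 0.16 without tumor 1). The cause was not tested.

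Under equal array medians the all-gene median shift was 0.24 in tumor, beside 0.05, and 0.00 in resistant tumor, beside 0.06. That setting left 995 genes called lower and 1290 higher in tumor, beside 2229 and 2714, and 1158 lower and 877 higher in resistant tumor, beside 2353 and 2696. The stricter filter tested 7582 genes, of which 1445 were called lower in tumor, beside 2229 of 11671. Between resistant tumor and tumor all genes called ranged with the fit from 5 to 82 lower and 2 to 61 higher, beside 27 and 15. Without the filter Foxn1 lost its call in tumor (adjusted p = 0.0519). Blocking on spike-in signal gave Foxn1 a call in resistant tumor (adjusted p = 0.00216). Within a set of arrays only values could be had, with no test.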
